A study of Mus musculus with 6 samples.

Results

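The 10 genes described here belong to glycogen metabolism and were read out from a microarray comparison of miR-188 knockout (KO) with wild-type (WT) bone marrow stromal cells. They were 3 subunits that carry protein phosphatase 1 to glycogen (Ppp1r3c, Ppp1r3b and Ppp1r3d), 4 genes of synthesis (Ugp2, Gyg, Gys1 and Gbe1) and 3 glycogen phosphorylases (Pygb, Pygl and Pygm). All 10 were among the 19938 genes measured, each by 1 probe set, so the choice of the brightest probe set per gene left nothing out. Ppp1r3c was picked because it was known to differ between KO and WT in these arrays, so its difference is described here and not tested. The other 9 genes were tested, but they too were chosen with earlier results of these data known.

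The 2 groups were KO and WT, with 3 arrays each. Every array held RNA from bone marrow stromal cells of C57BL/6 mice aged 6 months, in adipogenic differentiation per the sample titles. Both genotypes were grown in the same medium, with 10% fetal calf serum, 5 µg/ml insulin, 1 µM of the glucocorticoid dexamethasone and 0.5 mM of isobutylmethylxanthine, which blocks the breakdown of cyclic AMP. Cultures without this mixture and other time points were not analysed here, so the comparison is between genotypes within 1 medium. The titles number the replicates and call them biological, without saying that each came from its own mouse. P-values therefore cover the spread among these 6 cultures, which may be technical in part.

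The microRNA gene that was knocked out, Mir188 on the X chromosome, gives a pair of mature strands, 5p at chrX:7248031-7248051 and 3p at chrX:7247992-7248012 on the minus strand (GRCm38.p6). They are printed from RefSeq with the seed, bases 2 to 8, in capitals because the seed sets which transcripts a microRNA can bind.
mmu-miR-188-5p: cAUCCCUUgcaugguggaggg
mmu-miR-188-3p: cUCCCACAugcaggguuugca

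Glycogen is the branched glucose store of the cell. Glucose enters, is phosphorylated, turned by phosphoglucomutase and joined to UDP by Ugp2. Glycogenin (Gyg) starts the chain, glycogen synthase (Gys1 outside the liver) lengthens it and Gbe1 adds the branches, while the phosphorylases take glucose off again. Glycogen synthase is switched on by loss of phosphate and phosphorylase is switched off by it, and the Ppp1r3 subunits hold the phosphatase at the glycogen particle, where it acts on both. Adipocytes keep a small and fast-turning glycogen store, and Ppp1r3c is among the targeting subunits made in mouse fat. These arrays measure RNA, and neither glycogen nor the phosphorylation of the enzymes.

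In KO cells RNA for the enzymes that lengthen and branch the chain was higher and that for 1 phosphorylase was lower. Gys1 rose 1.47-fold, Gbe1 rose 1.41-fold and Pygb fell to 0.899 of the WT level. Of 15 alternative analyses, the call of Gys1 held in all 15, that of Gbe1 in 9 and that of Pygb in 6. Ppp1r3c was 1.75-fold higher in KO. Of the 9 genes other than Ppp1r3c, 2 rose, 1 fell and 6 did not pass (limma, Benjamini-Hochberg adjusted p under 0.05 over all genes). Over all 19938 genes 3.34% were called higher, 3.97% lower and 7.31% either way. The median difference of the 9 genes was 0.02 on the log2 scale, against 0.00465 over all genes tested.

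Ppp1r3c, also known as protein targeting to glycogen, had log2 levels of 7.90, 7.70 and 7.73 in KO arrays, against 7.01, 6.83 and 7.06 in WT arrays. The lowest KO value lay well above the highest WT value. The means were 7.78 ± 0.11 in KO and 6.97 ± 0.12 in WT (SD, n = 3 arrays each), and the difference was 0.81 (SE 0.08). It was the number 3 rise of all 19938 genes by size. A background level of 6.83 was set at the 95th percentile of 1027 olfactory receptor genes, expected to be silent in stromal cells. WT replicate 2 sat at that level and the other WT arrays a little above it, so the WT signal of Ppp1r3c is close to background. The KO arrays lay further above it. This level is no firm limit of detection. Of 8 skeletal muscle markers 4 lay above it, among them Ckm at a mean of 8.49, and 4 below.

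Gys1 encodes the synthase of muscle and most other tissues outside the liver. Its log2 levels were 10.06, 9.97 and 10.04 in KO arrays, against 9.48, 9.47 and 9.46 in WT arrays. The groups did not overlap, and the gap between them was several times the spread within either. Gys1 averaged 10.02 ± 0.05 in KO and 9.47 ± 0.01 in WT (SD, n = 3 arrays each), a rise of 0.55 (SE 0.04, limma adjusted p = 0.00139). It was number 26 of all genes by size of rise. The call held in all 15 alternative analyses, 6 of them without 1 array, with differences of 0.53 to 0.58 (adjusted p = 0.000182 to 0.0430).

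Gbe1, the branching enzyme, had log2 levels of 8.81, 8.85 and 8.98 in KO arrays, against 8.46, 8.17 and 8.51 in WT arrays. The groups did not overlap, but WT replicate 2 lay well below the other WT arrays. The means were 8.88 ± 0.09 in KO and 8.38 ± 0.18 in WT (SD, n = 3 arrays each), a rise of 0.50 (SE 0.09, limma adjusted p = 0.0263). Without WT replicate 2 the difference was 0.40 and the call held (adjusted p = 0.0354). The call was lost without KO replicate 1, KO replicate 2, KO replicate 3, WT replicate 1 or WT replicate 3, where the difference was 0.45 to 0.56 (adjusted p = 0.0705 to 0.105).

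**Figure D1:**
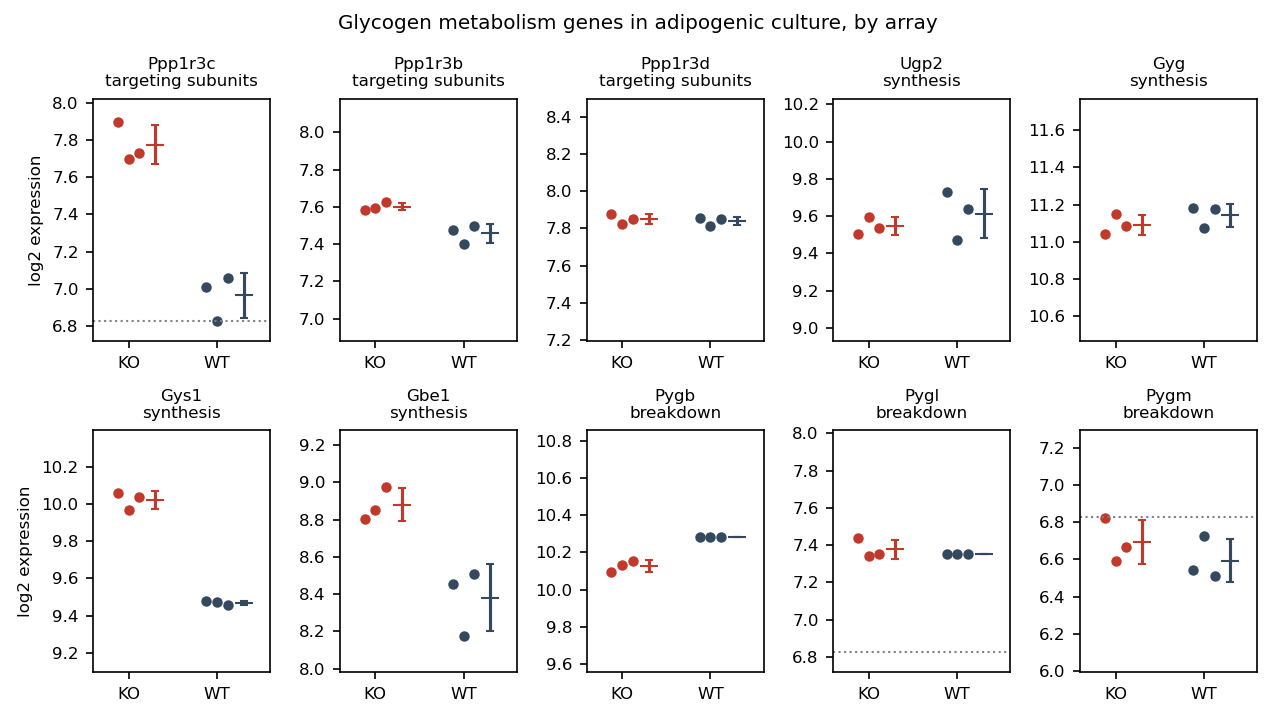
Log2 expression of the 10 genes on each array, KO left and WT right in each panel; points are arrays, the bar beside them is mean ± SD (n = 3), all panels span the same height, and the dotted line is the background level of 6.83. The KO points of Ppp1r3c, Gys1 and Gbe1 lie above all WT points, and those of Pygb below.

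The sequence before the start of 4 of these genes is shown because 3 were higher together and 1 was lower. The 250 bases upstream of the annotated start were taken from RefSeq (GRCm38.p6), where 9 of the 10 genes had an entry, Ugp2 with a pair of starts, and Ppp1r3b was not matched. Capitals mark ACGTG or GCGTG on either strand, the core letters bound by hypoxia-inducible factors. This core was searched because human PPP1R3C and GYS1 are described as induced by low oxygen. The windows are those of Ppp1r3c (chr19:36736605-36736854, minus strand), Gys1 (chr7:45434589-45434838, plus strand), Gbe1 (chr16:70313699-70313948, plus strand) and Pygb (chr2:150786546-150786795, plus strand), each written 5′ to 3′ along its gene.
Ppp1r3c: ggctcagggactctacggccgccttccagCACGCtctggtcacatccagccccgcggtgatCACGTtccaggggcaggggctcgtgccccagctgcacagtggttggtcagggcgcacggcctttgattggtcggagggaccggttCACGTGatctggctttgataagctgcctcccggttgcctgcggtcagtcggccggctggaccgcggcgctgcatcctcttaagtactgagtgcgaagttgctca
Gys1: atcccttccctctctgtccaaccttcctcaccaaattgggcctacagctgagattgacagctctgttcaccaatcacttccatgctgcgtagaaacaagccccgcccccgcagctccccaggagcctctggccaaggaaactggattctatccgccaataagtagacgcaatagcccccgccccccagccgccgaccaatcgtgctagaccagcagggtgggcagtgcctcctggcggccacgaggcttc
Gbe1: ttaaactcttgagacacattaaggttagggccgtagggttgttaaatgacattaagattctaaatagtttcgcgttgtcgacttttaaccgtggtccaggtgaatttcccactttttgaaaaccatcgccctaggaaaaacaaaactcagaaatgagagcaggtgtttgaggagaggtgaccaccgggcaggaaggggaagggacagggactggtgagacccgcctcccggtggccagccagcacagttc
Pygb: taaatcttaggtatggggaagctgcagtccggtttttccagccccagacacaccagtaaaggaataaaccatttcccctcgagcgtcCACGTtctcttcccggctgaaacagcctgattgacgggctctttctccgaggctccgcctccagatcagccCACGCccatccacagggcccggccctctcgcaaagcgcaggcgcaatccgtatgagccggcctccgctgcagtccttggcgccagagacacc

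The window of Ppp1r3c held the core in 3 stretches, at 221, 189 and 104 bases before the start. The nearest of these reads CACGTG, which matches ACGTG on both strands and is also an E-box. The windows of Gys1 and Gbe1 held none, and that of Pygb, whose RNA was lower, held 2. Of the 9 matched genes, 7 had a match in at least 1 window, among them Ugp2, whose window 2 held none. Over all 32841 mouse windows of this length 38.6% had one. That share is counted per window, and the 7 per gene. The full cyclic AMP response element, TGACGTCA, was in none of the windows of the 9 genes and in 1.55% of all windows. The genes that rose do not share these letters in this window, and longer or distant stretches were not searched.

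Neither of the other targeting subunits passed the test. Ppp1r3b, the subunit best known from liver, had log2 levels of 7.58, 7.60 and 7.63 in KO arrays, against 7.48, 7.40 and 7.50 in WT arrays. The groups did not overlap, and the difference of 0.14 (95% interval 0.05 to 0.23) missed the threshold (limma adjusted p = 0.0748). It passed in 2 of 15 alternatives, with dim genes left out of the adjustment (adjusted p = 0.0357) and with weighted arrays (adjusted p = 0.0444). It did not pass in any of the 6 fits without 1 array (adjusted p = 0.130 to 0.193). With the replicate number as a block the adjusted p was 0.208. Ppp1r3d, a subunit of wider tissue range, had 7.88, 7.82 and 7.85 in KO arrays, against 7.86, 7.82 and 7.85 in WT arrays. The groups overlapped almost fully, with a difference of 0.0091 (95% interval -0.07 to 0.09, limma adjusted p = 0.914).

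Ugp2 and Gyg, which act before the synthase, did not pass the test. Ugp2, which makes the UDP-glucose that the synthase uses, had log2 levels of 9.50, 9.60 and 9.54 in KO arrays, against 9.73, 9.47 and 9.64 in WT arrays. The KO values fell inside the WT range, and the difference was -0.07 (95% interval -0.23 to 0.09, limma adjusted p = 0.649). Gyg, the protein primer of the chain, had 11.04, 11.15 and 11.08 in KO arrays, against 11.18, 11.07 and 11.17 in WT arrays. Again the groups overlapped, with a difference of -0.05 (95% interval -0.16 to 0.06, limma adjusted p = 0.606). Both intervals end below those of Gys1, 0.47 to 0.64, and Gbe1, 0.28 to 0.72.

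**Figure D2:**
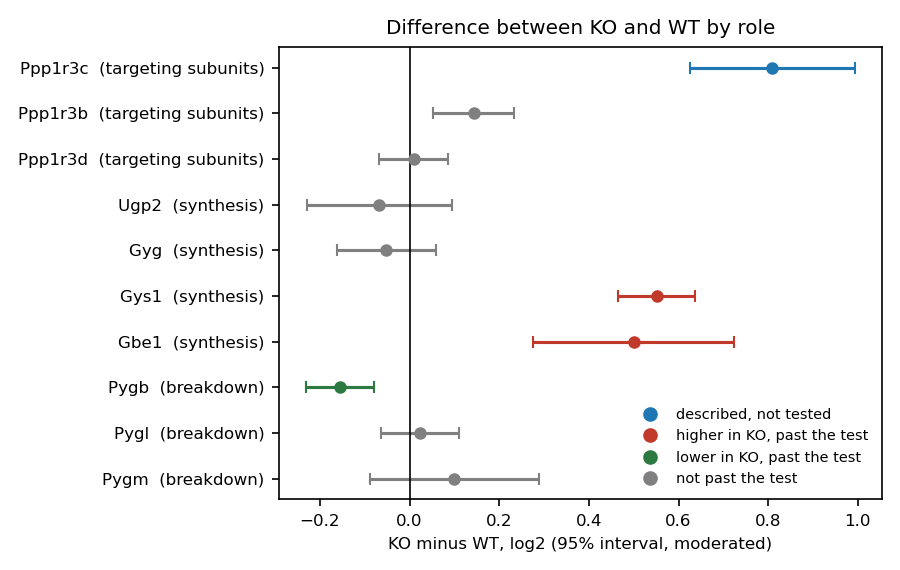
KO minus WT difference of each of the 10 genes on the log2 scale with its moderated 95% interval, grouped by role from targeting subunits down to breakdown; colours give the limma call, and Ppp1r3c is drawn as described only. Gys1 and Gbe1 stand at 0.55 and 0.50, Pygb at -0.15.

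Of the 3 phosphorylases, which cut glucose units from the chain ends, the brain form fell slightly. Pygb had log2 levels of 10.09, 10.13 and 10.16 in KO arrays, against 10.28 in each of the 3 WT arrays. The groups did not overlap and the difference was -0.15 (SE 0.03, limma adjusted p = 0.0364). The 3 WT values are exactly equal, as the probe summary used by the authors can produce, so their SD of 0 is no measure of precision. The call was lost without any single array (adjusted p = 0.0693 to 0.143) and after further quantile (adjusted p = 0.0653) or cyclic loess scaling (adjusted p = 0.0739), with differences of -0.17 to -0.12.

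Pygl, the liver form, had log2 levels of 7.44, 7.34 and 7.35 in KO arrays, against 7.35 in each of the 3 WT arrays, tied like those of Pygb. The difference was 0.02 (95% interval -0.06 to 0.11, limma adjusted p = 0.781). Pygm, the muscle form, had 6.82, 6.59 and 6.67 in KO arrays, against 6.54, 6.72 and 6.51 in WT arrays. All of these lie below the background level of 6.83, so Pygm was not measured above background in either genotype, and its difference was 0.10 (95% interval -0.09 to 0.29, limma adjusted p = 0.554). Pygm was the sole member below background, with the other 9 above it.

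Of the 9 genes other than Ppp1r3c, the KO values lay wholly above the WT values for 3, namely Ppp1r3b, Gys1 and Gbe1, and wholly below for 1, Pygb. Over all genes tested, 11.4% were separated upward, 13.5% downward and 24.9% either way. Within the WT group, replicate 2 was the lowest array for 6 of the 8 genes without tied values, namely Ppp1r3c, Ppp1r3b, Ppp1r3d, Ugp2, Gyg and Gbe1. Within the KO group the lowest array was replicate 1 for 4 of them and replicate 2 for 4. Without WT replicate 2 the difference of Ppp1r3c was 0.74, and over all 15 alternatives it ranged from 0.72 to 0.86.

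A list of 53 other genes around glycogen, of which 48 were measured, gave 5 rises, 4 falls and 39 genes that did not pass the test, with a median difference of 0.02. Over all genes 3.34% were called higher and 3.97% lower, 7.31% in all. Of the 9 measured genes of glucose entry and release 2 rose, and of the 4 other genes of synthesis 1 rose. The glucose transporter gene Slc2a1 averaged 12.53 ± 0.03 in KO and 12.18 ± 0.03 in WT (SD, n = 3 arrays each), a rise of 0.35 (SE 0.04, limma adjusted p = 0.00445). Hexokinase 2, Hk2, which traps glucose as its phosphate, averaged 8.89 ± 0.12 in KO and 8.44 ± 0.04 in WT (SD, n = 3 arrays each), a rise of 0.45 (SE 0.06, limma adjusted p = 0.0112). Phosphoglucomutase 1, Pgm1, averaged 10.57 ± 0.04 in KO and 10.17 ± 0.03 in WT (SD, n = 3 arrays each), a rise of 0.40 (SE 0.04, limma adjusted p = 0.00334). The groups did not overlap for any of these 3 genes. Of all 48 measured genes, the KO values lay wholly above the WT values for 7 and wholly below for 13. Over all genes tested these shares were 11.4% and 13.5%. Without 1 array Slc2a1 and Pgm1 kept their calls. With the replicate number as a block they lost them (adjusted p = 0.0590 and 0.0506). Hk2 lost its call without KO replicate 1 (adjusted p = 0.0519), WT replicate 1 (adjusted p = 0.0618) or WT replicate 3 (adjusted p = 0.0711). Hexokinase 1, Hk1, differed by -0.02 (adjusted p = 0.907) on its brighter probe set and by 0.08 on the other, and the insulin-responsive transporter gene Slc2a4 by 0.13 (adjusted p = 0.285).

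**Figure D3:**
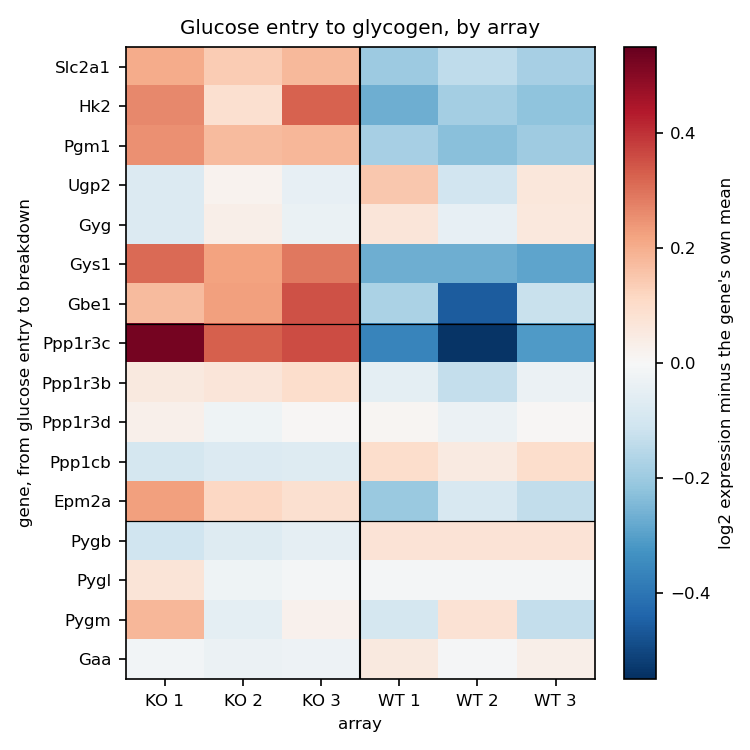
Log2 expression minus the gene's own mean for 16 genes (rows) on the 6 arrays (columns, KO left of WT), from glucose entry and synthesis at the top through targeting subunits and phosphatase to breakdown at the bottom; red is higher, blue lower. The rows are a selection. Hk1, Slc2a4, Ppp1ca and Ppp1cc, which did not pass the test, are among the genes not drawn. Slc2a1, Hk2, Pgm1, Gys1, Gbe1, Ppp1r3c, Ppp1r3b and Epm2a are above their mean on all KO arrays, while Ugp2 and Gyg show no such block.

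Among the partners of the targeting subunits, the catalytic subunit gene Ppp1cb fell by 0.16 (SE 0.03, limma adjusted p = 0.0303). With 1 array left out its call was kept only without WT replicate 2 (adjusted p = 0.0461) and lost in the other 5 cases (0.0696 to 0.136). The other catalytic genes Ppp1ca and Ppp1cc differed by -0.10 (adjusted p = 0.127) and 0.07 (adjusted p = 0.372). None of the 4 further targeting subunits passed limma's test or had an unadjusted p under 0.05, with differences of -0.06 for Ppp1r3a to 0.09 for Ppp1r3g, and Ppp1r3a and Ppp1r3f were below background. Ppp1r3e had the smallest p of these 4 (difference 0.07, adjusted p = 0.583). Epm2a encodes laforin, a phosphatase that acts on glycogen itself. It rose by 0.28 (SE 0.05, limma adjusted p = 0.0215), at levels below background in both groups, 6.69 ± 0.07 in KO and 6.41 ± 0.06 in WT (SD, n = 3 arrays each). Among the fits without 1 array that call was kept without WT replicate 2 only (adjusted p = 0.0438, otherwise 0.0540 to 0.104).

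Genes for the kinases that act on the same enzymes differed by -0.21 to 0.15. Of 5 phosphorylase kinase subunit genes none passed by limma, and Phkb had the smallest p (difference -0.11, adjusted p = 0.166). By limma 2 of the 5 had an unadjusted p under 0.05. The share of all genes at that threshold was not counted, so nothing is read from these 2. Of 4 measured genes for kinases that phosphorylate glycogen synthase, Csnk2a1 of casein kinase 2 fell by 0.15 (limma adjusted p = 0.0468) and Gsk3b differed by -0.12 (adjusted p = 0.192). Of 7 subunit genes of the AMP-activated kinase, Prkab1, whose product binds glycogen, rose by 0.15 (adjusted p = 0.0441) and Prkag2 fell by 0.21 (adjusted p = 0.0386). Of 5 measured genes of protein kinase A, which sets off glycogen breakdown, the regulatory subunit gene Prkar1a fell by 0.16 (adjusted p = 0.0365). Prkar1b, another regulatory subunit gene, differed the other way by 0.15 and did not pass (adjusted p = 0.0642). The calls of Csnk2a1, Prkab1 and Prkar1a were lost without any 1 of the 6 arrays (adjusted p = 0.0569 to 0.170). That of Prkag2 was kept without KO replicate 3 only (adjusted p = 0.0357, otherwise 0.0995 to 0.155). Lysosomal acid glucosidase, Gaa, differed by -0.05 (adjusted p = 0.454).

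**Figure D4:**
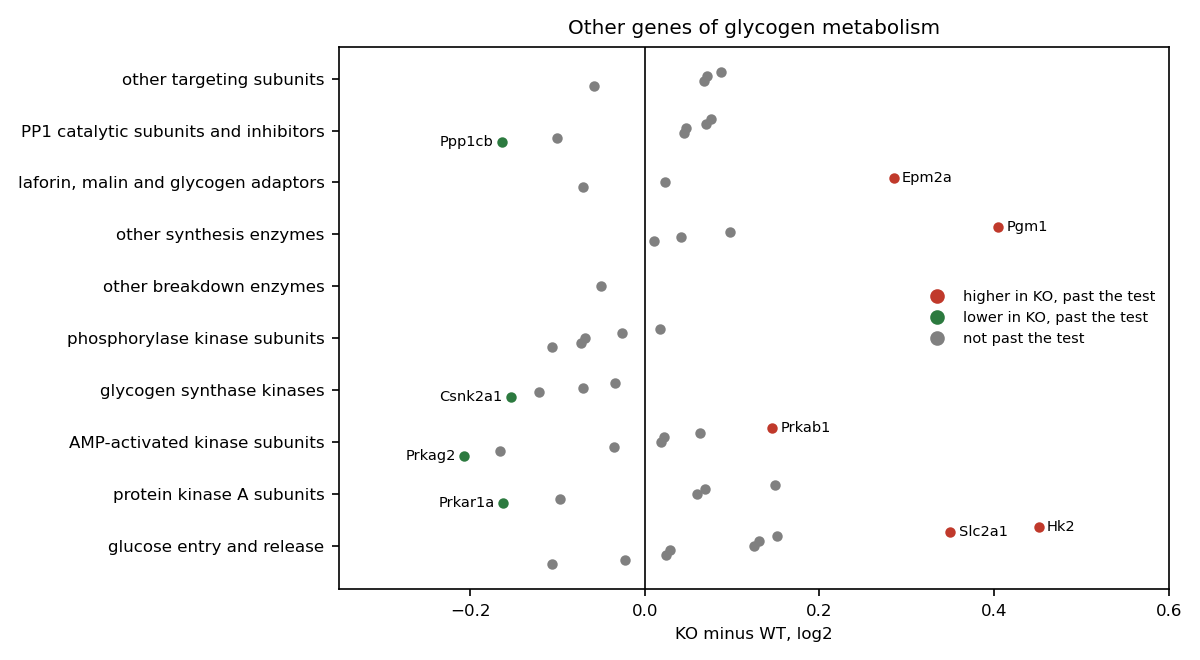
KO minus WT difference on the log2 scale (x axis) for the 48 other measured genes around glycogen, 1 point per gene, by list (y axis); red and green points passed limma's test and are named. Pgm1, Hk2 and Slc2a1 lie farthest to the right, between 0.35 and 0.45, and Prkag2 farthest to the left at -0.21.

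The profile of Ppp1r3c over the 6 arrays, each gene centred on its own mean, was set against the 13089 other genes above background. The 5 nearest were A4galt, Hmox1, Egln1, Abca1 and Oas2, at a root mean square difference of 0.106 to 0.108 on the log2 scale. They encode a glycolipid synthase, haem oxygenase, an oxygen-sensing prolyl hydroxylase, a cholesterol exporter and an antiviral enzyme. With 6 arrays in 2 groups such likeness mostly reflects a like difference between KO and WT, here 0.65 for A4galt to 0.71 for Hmox1. Gys1 stood at place 14 (0.155) and Gbe1 at place 41 (0.188), while Ppp1r3b was at place 958.

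Some facts of the whole series bear on these values. The Mir188 probe set read 7.22, 7.22 and 7.13 in KO arrays, against 7.22, 7.27 and 7.38 in WT arrays, overlapping and with a difference of -0.10 (limma adjusted p = 0.348). How much of the locus was deleted is not stated in the labels, so this probe set does not check the genotypes. For the marker counts that follow, the shares over all genes were 3.34% called higher and 3.97% lower. Of 9 measured stromal markers 8 were above background and Lepr below it. Of these 9, 2 rose (Pdgfra by 0.26 and Pdgfrb by 0.14), 2 fell (Nt5e, difference -0.28, and Kitl, difference -0.19) and 5 did not pass. The list had mean levels of 8.91 to 8.94 in both groups of arrays, and its part in the differences was not tested. Of 6 endothelial markers 3 were above background and 1, Kdr, fell by 0.29, with mean levels of 6.48 to 6.59 in KO arrays and 6.56 to 6.63 in WT arrays, and the part of this list was not tested. Of 9 adipocyte markers 3 fell and none rose, Pparg by 1.27, Lpl by 0.42 and Fabp4 by 0.33. The other 6 differed by -0.06 to 0.02, and the median difference of the 9 was -0.06. The 9 had a mean level of 7.46 to 7.50 over KO arrays and 7.69 to 7.73 over WT arrays, and Adipoq and Lep were below background in both. In such bulk samples fewer cells of a type and less RNA per cell cannot be told apart, and the part of the adipocyte markers in the differences above was not tested. Of 8 macrophage markers 1, Cd68, was above background, and it fell by 0.19. The list had mean levels of 6.55 to 6.60 in KO arrays and 6.54 to 6.62 in WT arrays, and its part was not tested either. The arrays' medians over all probe sets lay between 7.19 and 7.23.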

How the data were processed

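Each of the 6 samples gave 6 µg of total RNA for 1 single-colour Affymetrix array, per the labels' protocols. The deposited values are log2 expression made by the authors with RMA (background correction, scaling of arrays to a common distribution and median polish of probes), and Partek and Affymetrix Expression Console are named without versions, per the submitters' processing notes. Scaling sets the typical change near 0, so differences are relative to other genes. The table held 35556 probe sets, of which 21789 had 1 gene symbol in the platform annotation, which can be old; symbols were updated through gene identifiers for 21698. Probe sets with several symbols (1621) or none (12146) were not used. A gene was its probe set with the highest mean, which gave 19938 genes.

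KO and WT were compared with limma 3.58.1 (R 4.3.3; lmFit and eBayes, two-sided, no covariates), with Benjamini-Hochberg adjustment over all genes. The procedure was tested on simulated data with independent noise per gene. Shifts as small as many of the differences above, and effects on whole arrays, were not simulated. Intervals are moderated 95% intervals. Arrays give no depth, and their number limits the precision. Alternatives were each array left out, a replicate block, quantile, cyclic loess and median scaling, array weights, an intensity trend, a filter on dim genes and other probe set rules. The members, lists and naming rule were chosen with earlier results of these data known. Named are the 10 members, every listed pathway gene past the test, the smallest p of each list, the 5 nearest profiles and Mir188. Hk1, Slc2a4, Ppp1ca, Ppp1cc, Ppp1r3a, Ppp1r3f, Ppp1r3g, Gsk3b, Prkar1b and the cell type markers were named after their values were seen. Listed genes without a probe set of their own were not analysed here.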

Additional observations from a re-analysis of the deposited data

How the results depend on the processing

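Over 15 alternatives the direction of each of the 10 genes was kept except for Ppp1r3d and Pygl, both near 0. Ppp1r3d was -0.00086 after further quantile scaling, -0.0026 after cyclic loess, -0.0030 with array medians subtracted and -0.0017 with array weights, and ranged from -0.0039 to 0.023 without 1 array, where Pygl ranged from -0.0060 to 0.042. Deviations from the group means of same-numbered KO and WT arrays correlated at -0.30, -0.26 and -0.02, and those of the other pairs at -0.12 to 0.33. With 3 arrays per group, each centred on its group, this cannot show whether same-numbered cultures were prepared together. With the replicate number as a block, 30 genes were higher and 22 lower, 1 of the 9 members other than Ppp1r3c was higher (Gys1) and 0 lower, and 0 pathway genes were higher and 0 lower. Without 1 array, 109 to 434 genes were higher and 80 to 524 lower, 1 to 2 of the 9 members were higher and 0 lower, and 2 to 4 pathway genes were higher and 0 to 1 lower. WT replicate 3 mattered most, with 109 higher and 80 lower genes without it. Array weights, which put 7.41 on WT replicate 3 against 0.52 to 1.19 on the others, gave 1604 higher and 1814 lower genes. With these weights 6 pathway genes were higher and 7 lower. An intensity trend gave 941 genes higher and 1255 lower, with 6 pathway genes higher and 7 lower. Leaving out dim genes gave 965 higher and 1227 lower, against 666 and 791 in the main fit. After further quantile or cyclic loess scaling 2 of the 9 members were higher and 0 lower. Of the pathway genes 5 (quantile) or 6 (cyclic loess) were then higher and 1 lower. The cause of these shifts was not tested. Pygm is missing from the filter on dim genes, which it did not pass. Signal near background limits Ppp1r3c in WT cells, and Pygm and Epm2a in both groups.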
